A study of Homo sapiens with 6 samples.

Results

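The zinc finger genes examined here are the protein-coding genes whose symbol is ZNF followed by a number and whose raw read count averaged at least 500 over the 6 libraries. There were 115 such genes among 489 protein-coding ZNF genes in the count table, 28 of 241 on chromosome 19 and 87 of 248 on the other chromosomes. The genes were selected on the mean count alone, so levels are given as a description, whereas the comparison between groups was not part of the rule. ARPE-19, an established human cell line derived from retinal pigment epithelium, was cultured in 50 mM glucose and transfected with a negative control siRNA (NC, 3 libraries) or with an siRNA against EIF1 (siEIF1, 3 libraries), and polyadenylated RNA was sequenced. Both groups received the high glucose, so no value below compares glucose levels, and a change in RNA per cell cannot be told apart from a change in the make-up of the culture. The 3 libraries of a group were described as independent biological replicates of 1 cell line.

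EIF1 is a translation initiation factor that helps the scanning ribosome choose its start codon. Its own RNA was measured at 1305, 1254 and 1227 CPM (read counts scaled to library size) in the NC libraries and at 109, 104 and 103 CPM in the siEIF1 libraries. The knockdown was a log2 fold change of -3.58 ± 0.05 (SE), with an adjusted p of 1.08e-13 by edgeR's quasi-likelihood test. Of 14 markers of pigment epithelium, 12 were in the table: KRT18, KRT8, BEST1, OTX2 and MITF were well expressed in all libraries, whereas TYR, TYRP1, LRAT and PMEL were at 0.32 FPKM (fragments scaled to library size and transcript length) or less and RPE65 and TTR were not among the genes of the table. The summed FPKM of photoreceptor markers was 2.04 to 2.38 in NC and 2.38 to 2.81 in siEIF1, mostly from PDE6B, and those of endothelial and leukocyte markers did not pass 0.26 and 1.01. The summed FPKM of the epithelial markers was 523.1 to 542.1 in NC and 566.2 to 612 in siEIF1, mostly from KRT18 and KRT8. The markers did not move as a set, since 6 of 10 tested had a log2 fold change above 0 and 4 below. KRT18, KRT8 and RLBP1 rose, 3 of 10 tested, beside 10.2% of all tested genes. RLBP1 was low, at 0.17 to 0.27 FPKM in NC and 0.62 to 0.73 FPKM in siEIF1. BEST1 was at 60.5 to 70.8 FPKM in NC and 38.8 to 62.1 FPKM in siEIF1, lowest in replicate 3. The part of these markers in the values below was not tested. Library totals ran from 26499929 to 31431479 counts.

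Most ZNF proteins bind DNA through a row of C2H2 zinc fingers, each held together by a pair of cysteines and a pair of histidines around 1 zinc ion. Many carry a KRAB domain, which recruits TRIM28, and through it the histone methyltransferase SETDB1, heterochromatin proteins and the NuRD deacetylase complex, to silence transposable elements and genes. The genes of this family multiplied by tandem duplication, and chromosome 19 holds the densest clusters. Other ZNF proteins are not KRAB repressors at all but act on RNA, on ribosomes or in chromatin complexes.

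The sequence that names the family is given here for 5 genes, as 84 bases of the coding strand that encode 1 finger and the linker to the next. They are shown because ZNF426 and ZNF317 are higher in siEIF1 on chromosome 19, ZNF664 is the best counted gene of the set, and ZNF33B and ZNF33A are near copies of which only the first passed the test. Capitals mark the codons of the cysteines and histidines that hold the zinc. Positions are on GRCh38, and all of these fingers lie in the last exon of the canonical GENCODE transcript, within the coding sequence. The ZNF426 finger is at chr19:9529118-9529201 on the minus strand in exon 8 of 8, the ZNF317 finger at chr19:9160315-9160398 on the plus strand in exon 7 of 7, and the ZNF664 finger at chr12:124012409-124012492 on the plus strand in exon 5 of 5. The ZNF33B finger is at chr10:42593792-42593875 on the minus strand and the ZNF33A finger at chr10:38055199-38055282 on the plus strand, each in exon 5 of 5.
ZNF426: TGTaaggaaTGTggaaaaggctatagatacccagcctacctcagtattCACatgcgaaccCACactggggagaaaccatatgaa
ZNF317: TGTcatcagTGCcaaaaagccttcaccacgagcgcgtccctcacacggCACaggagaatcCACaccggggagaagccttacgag
ZNF664: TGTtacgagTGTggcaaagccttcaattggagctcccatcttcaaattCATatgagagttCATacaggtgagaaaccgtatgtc
ZNF33B: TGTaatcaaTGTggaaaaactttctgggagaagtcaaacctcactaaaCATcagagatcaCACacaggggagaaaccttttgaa
ZNF33A: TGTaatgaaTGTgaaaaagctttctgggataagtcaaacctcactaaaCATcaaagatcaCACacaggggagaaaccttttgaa
In these windows ZNF33A and ZNF33B were identical at 79 of 84 bases, ZNF426 and ZNF317 at 51, and ZNF426 and ZNF664 at 52. Near-identical sequence bears on the counts, since only uniquely mapped reads were counted. Of the 115 genes, 84 shared no window of 100 bases with a transcript of another gene and 13 shared more than 5% of theirs. The highest share was in ZNF23, at 96.1% of its windows, and values of such genes are uncertain. The shares also count read-through models over the same locus, as for ZNF358 and ZNF511, and do not tell these from copies elsewhere.

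The 115 genes were measured well but most are not abundant. Their mean counts ran from 504.7 to 4381.3, with a median of 837.8. Per transcript length, the NC level ran from 0.72 FPKM for ZNF26 to 27.0 FPKM for ZNF428, with a median of 3.53 FPKM. By counts ZNF664 was the highest, followed by ZNF207, a spindle and kinetochore protein. On the FPKM scale ZNF428, ZNF581, ZNF593 and ZNF622 led. Just inside the limit were ZNF48 at a mean of 504.7 counts, ZNF605 at 505.7 and ZNF75A at 513.2. Just outside were ZNF318 at 498.3, ZNF248 at 495.8 and ZNF853 at 493.0.

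After EIF1 knockdown 17 of the 115 genes were higher and 6 were lower at an adjusted p under 0.05, which is 14.8% and 5.22% of them. Of all 16749 genes tested 10.2% were higher and 10.4% lower. Of the 7832 protein-coding genes that also had a mean count of 500 or more, a closer background, 15.6% were higher and 13.1% lower. The share of ZNF genes that rose was thus near the background, and the share that fell was below it. The background genes were better counted, with a median mean count of 1376.5 and a median SE of 0.0602. The ZNF genes had 837.8 and 0.0661, and the part of this in the shares was not tested. None of the 115 passed the study's fold limit of above 2 or below 0.5 as well, which 0.217% of the background genes did. The fitted fold changes ran from 0.816 for ZNF503 to 1.43 for ZNF608. All 6 siEIF1 and NC libraries were separated, with no overlap between groups, upward for 26 ZNF genes and downward for 16, against 24.4% and 22.6% of the background genes. Log2 fold changes were above 0 for 74 genes (64.3%) and below 0 for 41. Of all tested genes 50.6% were above 0, and of the protein-coding background 52.0%. The median of the ZNF genes was 0.058, beside 0.0033 for all tested genes and 0.0086 for the protein-coding background.

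**Figure D1:**
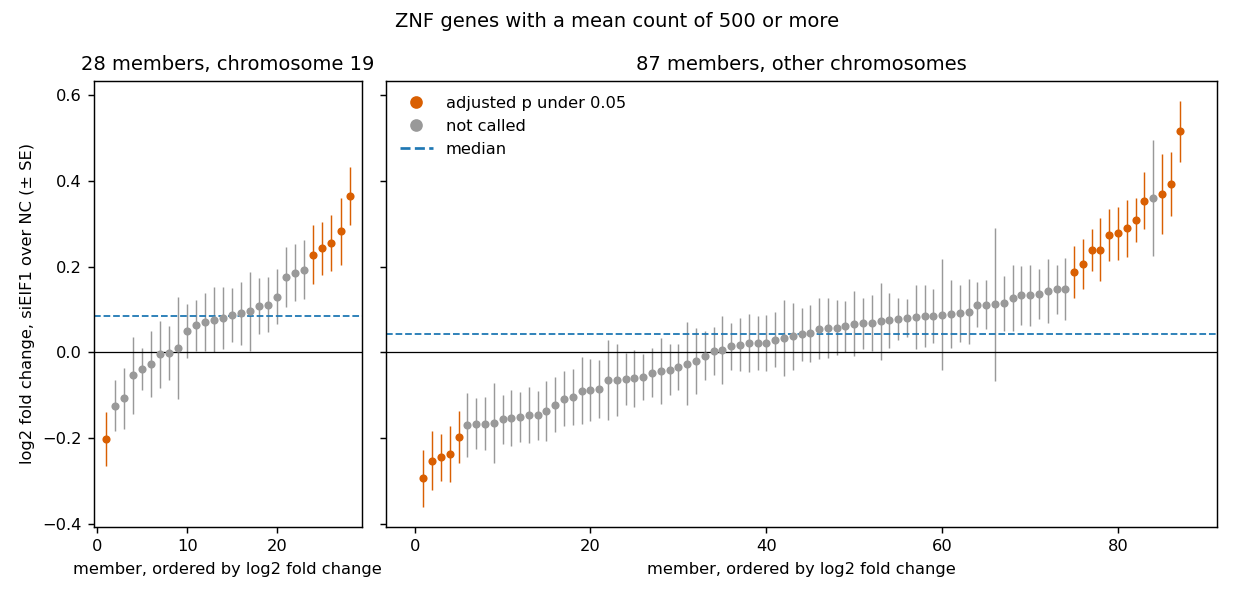
Fitted log2 fold change (siEIF1 over NC, vertical axis) with its standard error for each of the 28 ZNF genes on chromosome 19 and the 87 on other chromosomes, ordered along the horizontal axis. Orange points passed an adjusted p of 0.05, grey points did not, and the dashed lines are the medians, 0.084 and 0.042.

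On chromosome 19, 5 of the 28 ZNF genes (17.9%) were higher in siEIF1 and 1 (3.57%) was lower. ZNF426, ZNF581, ZNF317, ZNF358 and ZNF865 rose and ZNF507 fell. Log2 fold changes were above 0 for 20 genes (71.4%), with a median of 0.084. The other 436 protein-coding genes of chromosome 19 with a mean count of 500 or more had a median of 0.036, and 59.4% were above 0. Of them 85 (19.5%) rose and 40 (9.17%) fell, so that the 17.9% of ZNF genes that rose was near their share. Their median mean count was 1670.2, beside 745.4 for the ZNF genes. On the other chromosomes 12 of the 87 ZNF genes were higher and 5 lower, 54 (62.1%) were above 0, and the median was 0.042. The 7281 other genes there had a median of 0.0056, and 51.3% were above 0. Of them 1122 (15.4%) rose and 980 (13.5%) fell, so that the 13.8% of ZNF genes that rose was near their share. ZNF genes under the count limit had medians of 0.098 on chromosome 19 and 0.028 elsewhere. On chromosome 19, 18 of 198 tested (9.09%) rose and 3 (1.52%) fell, and elsewhere 10 of 146 (6.85%) rose and 3 (2.05%) fell. Of all tested genes 10.2% rose and 10.4% fell. The median SE of these low-count ZNF genes was 0.129 and 0.120, beside 0.086 for all tested genes. Genes are not replicates, so these counts and medians describe the classes and the difference between chromosomes was not tested.

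The libraries show how uniform this was. For each library the median over genes of log2 CPM minus the NC mean was taken. For the chromosome 19 genes it was -0.0073, -0.0093 and 0.018 in NC and 0.109, 0.022 and 0.108 in siEIF1. For the ZNF genes of other chromosomes it was 0.015, -0.0018 and -0.0046 in NC and 0.012, -0.0083 and 0.089 in siEIF1. For the chromosome 19 ZNF genes all siEIF1 medians lay above all NC medians, with the second replicate close to the NC range. The other well-counted genes of chromosome 19 were separated as well. Their medians were -0.015, 0.0085 and 0.0075 in NC and 0.037, 0.054 and 0.022 in siEIF1, so the separation was not particular to ZNF genes. For the ZNF genes of other chromosomes the groups overlapped, and the third siEIF1 replicate alone was high. Without that replicate the fitted median of the other chromosomes was -0.0057, whereas that of chromosome 19 was 0.066. The gap between the chromosome classes was -0.023, -0.0075 and 0.023 in NC and 0.098, 0.030 and 0.019 in siEIF1. The gap of the third siEIF1 replicate lay within the NC values, so the groups were not separated by it. Against the other chromosome 19 genes the gap was 0.0080, -0.018 and 0.011 in NC and 0.073, -0.032 and 0.086 in siEIF1, and the groups overlapped again.

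**Figure D2:**
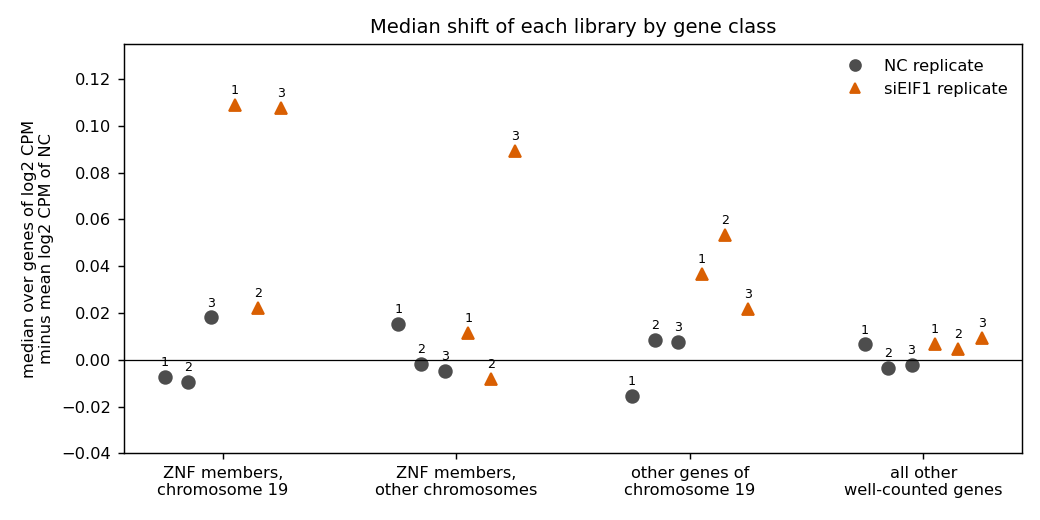
Median over genes of log2 CPM minus the mean log2 CPM of the NC libraries (vertical axis), for each NC (grey circles) and siEIF1 (orange triangles) replicate, numbered, in 4 gene classes. The siEIF1 replicates 1 and 3 sit at 0.109 and 0.108 for ZNF genes of chromosome 19, and only replicate 3, at 0.089, stands apart for those of other chromosomes. For the other genes of chromosome 19 all siEIF1 replicates also lie above all NC replicates.

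ZNF426, a KRAB protein with 11 fingers by the pattern searched, gave the clearest change on chromosome 19. Its CPM was 17.7, 15.9 and 17.2 in NC and 21.8, 21.5 and 22.1 in siEIF1. The siEIF1 values were tight and all above NC, for a log2 fold change of 0.36 ± 0.07 (SE) and an adjusted p of 0.00214 by edgeR. The call held whichever library was left out. ZNF317, a KRAB gene in the same stretch of the chromosome, was at 20.8, 21.3 and 21.8 CPM in NC and 24.0, 25.8 and 26.5 CPM in siEIF1. It rose by 0.25 ± 0.07 on the log2 scale with an edgeR adjusted p of 0.0139, a call lost without the second siEIF1 replicate.

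The remaining calls on chromosome 19 were less stable. ZNF581 was at 49.5, 54.3 and 46.8 CPM in NC and 67.7, 61.0 and 54.4 CPM in siEIF1, so that the lowest siEIF1 value barely cleared the highest NC value. Its log2 fold change was 0.28 ± 0.08 (edgeR adjusted p 0.02), and the call was lost without NC replicate 1 or 3 or siEIF1 replicate 1 or 2. The gene overlaps its neighbour ZNF580 on the same strand, which had 0.18 ± 0.07 and an adjusted p of 0.0994 and shared 5.11% of its windows. ZNF358 was at 39.8, 43.0 and 43.7 CPM in NC and 52.2, 51.2 and 46.3 CPM in siEIF1, a log2 fold change of 0.24 ± 0.06 (edgeR adjusted p 0.014), lost without NC replicate 1 or siEIF1 replicate 2. It shared 17.2% of its windows with an overlapping gene that GENCODE tags as read-through. ZNF865, a gene with 20 fingers, was at 16.5, 17.1 and 16.8 CPM in NC and 19.4, 18.8 and 20.9 CPM in siEIF1. The ZNF865 groups did not overlap, but its call (0.23 ± 0.07, edgeR adjusted p 0.033) held in only 1 of 6 fits that left a library out, that without siEIF1 replicate 2, and its adjusted p was 0.0764 by DESeq2. ZNF507, the gene that fell, was at 24.99, 23.6 and 24.8 CPM in NC and 20.9, 20.9 and 22.0 CPM in siEIF1. Its change of -0.20 ± 0.06 (edgeR adjusted p 0.0377) likewise held in 1 of 6 such fits, that without siEIF1 replicate 3, with an adjusted p of 0.0787 by DESeq2.

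Position along chromosome 19 did not single out 1 cluster. With genes less than 1 Mb apart joined, the 28 genes fell into 9 groups. The largest held 10 genes between positions 55576774 and 58277495, of which ZNF865 and ZNF581 rose and 8 were above 0, with a median of 0.079. A group of 7 genes between 8806170 and 9675100 held ZNF426 and ZNF317, had a median of 0.080 and reached from -0.11 for ZNF562 to 0.36 for ZNF426. ZNF528, ZNF83 and ZNF160 formed another group with values of 0.19, 0.11 and 0.19, none of which passed the test. ZNF146, the best counted ZNF gene of chromosome 19, is made up almost wholly of fingers. It was at 104.3, 94.1 and 92.8 CPM in NC and 92.1, 83.1 and 91.8 CPM in siEIF1, with a log2 fold change of -0.12 ± 0.06 and an edgeR adjusted p of 0.166.

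On the other chromosomes ZNF608 gave the largest change of the 115 genes. Its CPM was 16.3, 18.5 and 17.8 in NC and 24.7, 26.3 and 24.4 in siEIF1. The groups were well apart, with a log2 fold change of 0.51 ± 0.07 and an edgeR adjusted p of 0.000209. ZNF629, with 19 fingers, was at 34.0, 35.4 and 37.2 CPM in NC and 41.6, 47.2 and 51.2 CPM in siEIF1, a change of 0.39 ± 0.07 (edgeR adjusted p 0.00212). ZNF652, a repressor that works with the CBFA2T3 corepressor, was at 15.2, 15.3 and 18.4 CPM in NC and 20.1, 19.7 and 23.4 CPM in siEIF1. Both groups had 1 high library, the third, and the change of 0.37 ± 0.09 (edgeR adjusted p 0.0126) was lost without NC replicate 1 or 2.

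ZNF664, the most counted gene of the set, was measured at 141.7, 130.6 and 132.8 CPM in NC and 163.4, 163.4 and 174.9 CPM in siEIF1. Its change of 0.31 ± 0.05 had an edgeR adjusted p of 0.000811 and held without any 1 library. ZNF664 shared 6.43% of its windows with a transcript of another gene. ZNF197, a KRAB protein with 22 fingers, was at 17.3, 16.6 and 17.0 CPM in NC and 21.1, 22.6 and 21.4 CPM in siEIF1, a change of 0.35 ± 0.07 (edgeR adjusted p 0.00207). All libraries of each group lay close together for ZNF197, which made it one of the steadiest changes. ZNF385A, an RNA-binding partner of p53, was at 27.0, 29.3 and 28.3 CPM in NC and 33.1, 37.3 and 32.9 CPM in siEIF1, a change of 0.29 ± 0.07 (edgeR adjusted p 0.00814). ZNF219, ZNF362, ZNF268, ZNF33B, ZNF84 and ZNF512B also rose, by 0.19 to 0.28 on the log2 scale. The calls of ZNF268 and ZNF84 were lost without NC replicate 2 or 3 or siEIF1 replicate 1 or 2.

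Among the genes that fell, ZNF503, a developmental repressor of transcription, changed most. Its CPM was 38.1, 37.2 and 33.5 in NC and 30.9, 29.0 and 28.8 in siEIF1. The change was -0.29 ± 0.07 with an edgeR adjusted p of 0.00634, and it held without any 1 library. Its close relative ZNF703 was at -0.086 ± 0.07 with an adjusted p of 0.421. ZNF330, a nucleolar protein, was at 45.9, 43.8 and 45.9 CPM in NC and 36.9, 37.7 and 39.8 CPM in siEIF1, a change of -0.24 ± 0.06 (edgeR adjusted p 0.00708). ZNF511 (-0.25), ZNF830 (-0.24) and ZNF131 (-0.20) fell as well. ZNF511 shared 41.4% of its windows with a read-through transcript, and its call and that of ZNF830 were lost without NC replicate 1 or 3 or siEIF1 replicate 2, while that of ZNF131 held only without siEIF1 replicate 1.

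**Figure D3:**
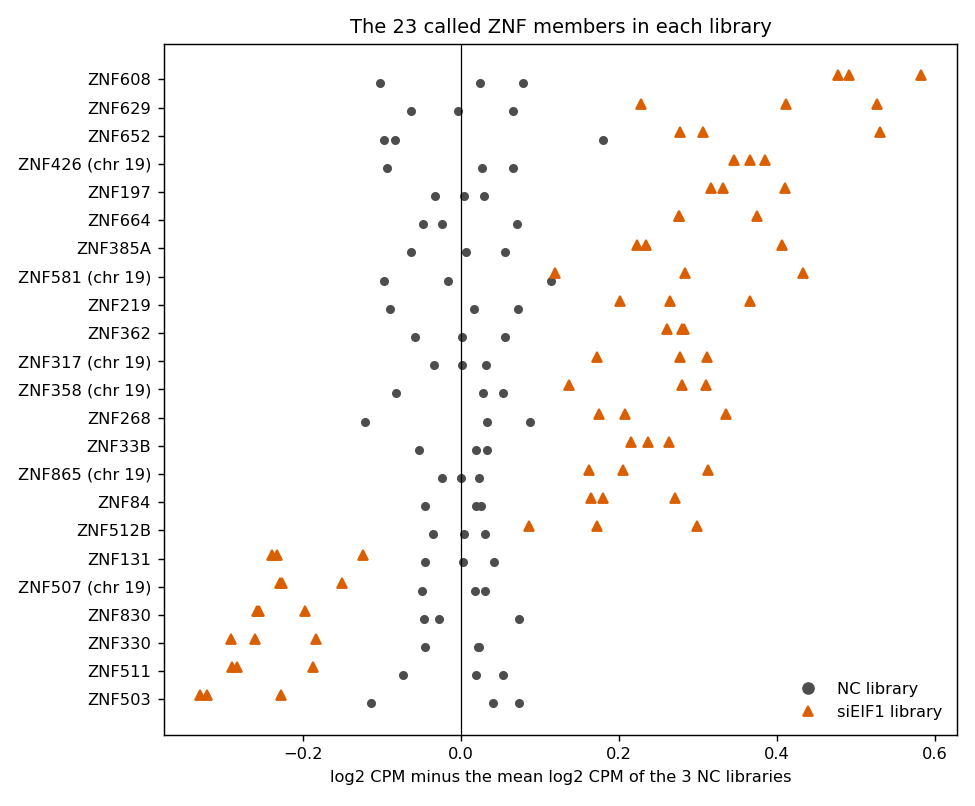
Log2 CPM minus the mean of the NC libraries (horizontal axis) in each NC (grey circles) and siEIF1 (orange triangles) library, for the 23 ZNF genes that passed an adjusted p of 0.05, with those of chromosome 19 marked. In all 23 the libraries of the groups do not overlap, narrowly so for ZNF581.

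Of the 23 genes called, 11 kept their call when each of the 6 libraries was left out in turn, and 19 also passed in DESeq2. The 11 were ZNF608, ZNF629, ZNF426, ZNF197, ZNF664, ZNF385A, ZNF219, ZNF362, ZNF33B, ZNF330 and ZNF503. A further 19 genes had groups that did not overlap but did not pass the test. ZNF462, with 33 fingers, had a large value with a wide error, at 25.9, 31.0 and 33.5 CPM in NC and 29.6, 39.2 and 47.3 CPM in siEIF1. Its groups overlapped, and 0.36 ± 0.14 had an edgeR adjusted p of 0.0801.

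Near copies did not always give the same call. ZNF33B was at 57.4, 57.9 and 54.6 CPM in NC and 68.0, 66.7 and 65.7 CPM in siEIF1, a change of 0.24 ± 0.05 (edgeR adjusted p 0.00412). ZNF33A was at 37.5, 35.5 and 35.3 CPM in NC and 38.7, 37.6 and 40.6 CPM in siEIF1, a change of 0.11 ± 0.06 (edgeR adjusted p 0.2). Both were above NC in all siEIF1 libraries, and whether the copies differed from each other was not tested. Despite the likeness of the fingers printed above, they shared only 0.93% and 0.91% of their 100-base windows.

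The KRAB domain was looked for in the protein encoded by the canonical transcript, with a short amino acid pattern and at least 1 finger. How often the pattern misses a domain was not measured, so a gene without a match may still carry one. The pattern was found in 40 of the 115 genes, 16 on chromosome 19 and 24 elsewhere. Of these 6 rose (ZNF426, ZNF197, ZNF317, ZNF268, ZNF33B and ZNF84) and 0 fell by edgeR, while 2 were lower at an unadjusted p under 0.05, ZNF23 and ZNF746. DESeq2 also called 0 lower. The share higher, 15%, was near the background of 15.6%, and 13.1% of the background genes were lower. Log2 fold changes were above 0 for 33 of 40 (82.5%), beside 52.0% of the background genes, with a median of 0.078. Of the 75 genes without the pattern 11 rose and 6 fell, 41 (54.7%) were above 0 and the median was 0.038. The KRAB genes of chromosome 19 had a median of 0.089 and those of other chromosomes 0.062. In an alternative chosen after seeing the data, leaving out the third siEIF1 replicate brought the number above 0 to 25 and the median to 0.040 for KRAB genes, and the median of the others to 0.0002.

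**Figure D4:**
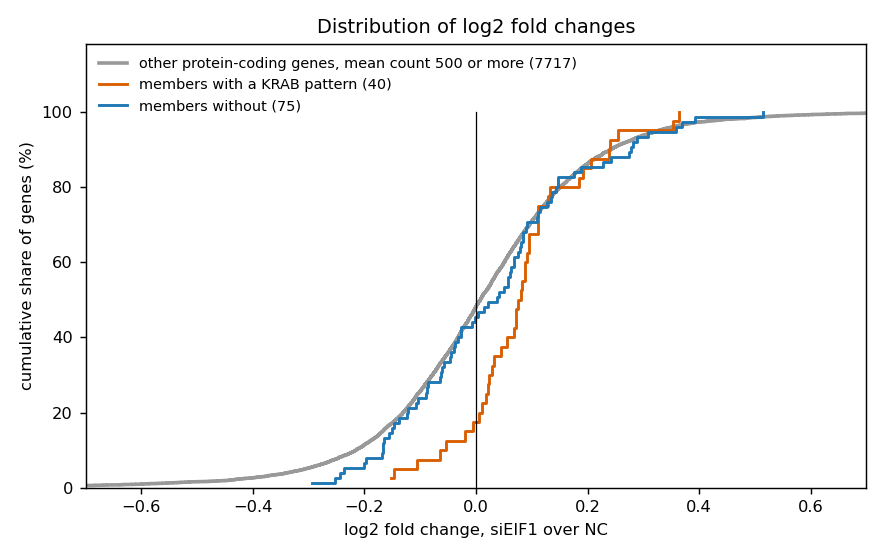
Cumulative share of genes in percent (vertical axis) against log2 fold change, siEIF1 over NC (horizontal axis, drawn from -0.7 to 0.7), for 40 ZNF genes with a KRAB pattern, 75 without, and 7717 other protein-coding genes with a mean count of 500 or more. The KRAB curve lies to the right of the others in its lower part, with 33 of 40 genes above 0, and joins them at its upper end. Of the 7717 other genes 51.8% were above 0.

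By number of fingers, the 40 genes with 10 or more fingers by the pattern had 8 higher and 0 lower by edgeR and 0 lower by DESeq2, with 3 lower at an unadjusted p under 0.05, and a median of 0.057. That is 20% higher, beside the background shares of 15.6% higher and 13.1% lower. The 60 genes with 1 to 9 had 7 higher and 3 lower, with a median of 0.065. The 15 genes without a match to the pattern, among them ZNF608, ZNF385A, ZNF503 and ZNF330, had 2 higher and 3 lower and a median of -0.086. Over the 115 genes the Spearman correlation of the log2 fold change was 0.224 with the number of fingers, 0.098 with transcript length, 0.001 with GC content and -0.009 with mean count. These are descriptions across genes of the same 6 libraries.

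ZNF proteins with roles in RNA handling or on the ribosome numbered 9 among the 115, and 1 rose and 1 fell, 11.1% each beside 15.6% and 13.1% of the background. ZNF385A rose and ZNF830, a splicing-related protein, fell. ZNF598, the ubiquitin ligase that recognises collided ribosomes, was at 38.2, 37.8 and 37.2 CPM in NC and 40.4, 35.2 and 39.4 CPM in siEIF1, with overlapping groups and 0.022 ± 0.06 (edgeR adjusted p 0.849). ZNF622, a maturation factor of the large ribosomal subunit, was at 0.11 ± 0.06 (edgeR adjusted p 0.241). ZNF593, another factor of that subunit, was at 0.090 ± 0.08 (edgeR adjusted p 0.477). ZNF326, which links splicing to elongation, was at -0.17 ± 0.06 (edgeR adjusted p 0.0672). ZNF207, ZNF106 and ZNF638 also did not pass, at 0.081, 0.069 and -0.11.

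Of 8 ZNF genes tied to chromatin complexes, 2 rose and 0 fell by edgeR, with 0 lower in DESeq2 or at an unadjusted p under 0.05. The background shares were 15.6% higher and 13.1% lower. ZNF219 was at 41.9, 46.9 and 45.1 CPM in NC and 57.5, 53.6 and 51.3 CPM in siEIF1, a change of 0.28 ± 0.06 (edgeR adjusted p 0.00626). ZNF512B, which binds the NuRD complex, was at 42.2, 43.4 and 44.2 CPM in NC and 46.0, 53.3 and 48.8 CPM in siEIF1, a change of 0.19 ± 0.06 (edgeR adjusted p 0.0461) that held only without siEIF1 replicate 1 and missed the threshold in DESeq2. ZNF462 above, ZNF644, ZNF687, ZNF592, ZNF532 and ZNF217 did not pass. Of 10 sequence-specific transcription factors of the ZNF type, ZNF362 rose, at 24.7, 25.7 and 23.7 CPM in NC and 29.6, 30.1 and 30.0 CPM in siEIF1 (0.27 ± 0.06, edgeR adjusted p 0.00574). The other 9, which include ZNF148, ZNF281, ZNF384 and ZNF24, did not pass. With genes under the count limit included, 1 of 17 tested in this list was higher and 1 lower. The lower one was ZNF367 (-1.33 ± 0.12, edgeR adjusted p 5.94e-06). ZNF160, ZNF33A and ZNF37A, members of a list of repressors of transposable elements, did not pass. The whole list, including genes under the count limit, had 1 of 17 tested higher, ZNF91 (0.31 ± 0.08, edgeR adjusted p 0.0141), and 1 lower, ZNF519 (-0.76 ± 0.19, adjusted p 0.0129). The call of ZNF91 was lost without NC replicate 2 or 3 or siEIF1 replicate 2. ZNF274, which brings SETDB1 to the 3′ ends of ZNF genes and was picked for that role after its values were seen, was at 0.071 ± 0.07 (edgeR adjusted p 0.523).

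Of 22 genes for corepressors that KRAB domains work through, 4 rose and 4 fell. This is 18.2% in each direction, near the 15.6% higher and 13.1% lower of the protein-coding background. TRIM28, the scaffold, was at 199.4, 207.0 and 203.4 CPM in NC and 219.8, 224.3 and 216.0 CPM in siEIF1, higher in every siEIF1 library but at 0.11 ± 0.04 and an edgeR adjusted p of 0.0912. SETDB1, its histone H3 lysine 9 methyltransferase, was at 38.8, 40.0 and 39.3 CPM in NC and 38.8, 44.3 and 47.2 CPM in siEIF1, with overlapping groups (0.14 ± 0.07, edgeR adjusted p 0.176). Neither passed the test.

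The corepressors that rose were CHD4, CHD3, HDAC1 and ATF7IP. CHD4, the main ATPase of the NuRD complex, was at 54.7, 56.4 and 53.1 CPM in NC and 68.2, 67.7 and 65.9 CPM in siEIF1, a change of 0.30 ± 0.05 (edgeR adjusted p 0.000908). CHD3, a related ATPase, changed by 0.26 ± 0.08 (adjusted p 0.027), HDAC1 by 0.18 ± 0.05 (adjusted p 0.029) and ATF7IP, a partner of SETDB1, by 0.18 ± 0.06 (adjusted p 0.0468). The call of CHD3 was lost without NC replicate 1 or 2 or siEIF1 replicate 2 or 3, and that of HDAC1 without NC replicate 2 or 3 or siEIF1 replicate 1 or 2. That of ATF7IP held only without NC replicate 1, and its adjusted p was 0.0821 by DESeq2. The CHD3 groups overlapped, with NC replicate 3 at 147.3 CPM and siEIF1 replicate 1 at 146.6 CPM. HDAC2, also a NuRD deacetylase, was at 162.1, 150.3 and 143.9 CPM in NC and 141.3, 133.2 and 138.4 CPM in siEIF1, lower in every siEIF1 library but at -0.14 ± 0.05 and an edgeR adjusted p of 0.0733.

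The corepressors that fell were DNMT1, SUV39H1, CBX5 and CBX1. DNMT1, the maintenance DNA methyltransferase, was at 41.3, 35.5 and 39.8 CPM in NC and 24.7, 24.6 and 29.7 CPM in siEIF1, a change of -0.56 ± 0.08 (edgeR adjusted p 0.000354). SUV39H1, another histone H3 lysine 9 methyltransferase, was at 6.17, 6.47 and 6.90 CPM in NC and 4.70, 4.195 and 3.52 CPM in siEIF1, a change of -0.65 ± 0.13 (edgeR adjusted p 0.00335). CBX5 and CBX1, heterochromatin proteins, changed by -0.22 ± 0.06 (adjusted p 0.0146) and -0.18 ± 0.05 (adjusted p 0.0152). Their relatives did not pass, with SUV39H2 at 0.24 ± 0.11 (edgeR adjusted p 0.163) and CBX3 at -0.019 ± 0.05 (adjusted p 0.829). DNMT1, SUV39H1 and CHD4 kept their calls without any 1 library, whereas CBX1 lost its call without NC replicate 1 and CBX5 without siEIF1 replicate 1 or 2.

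**Figure D5:**
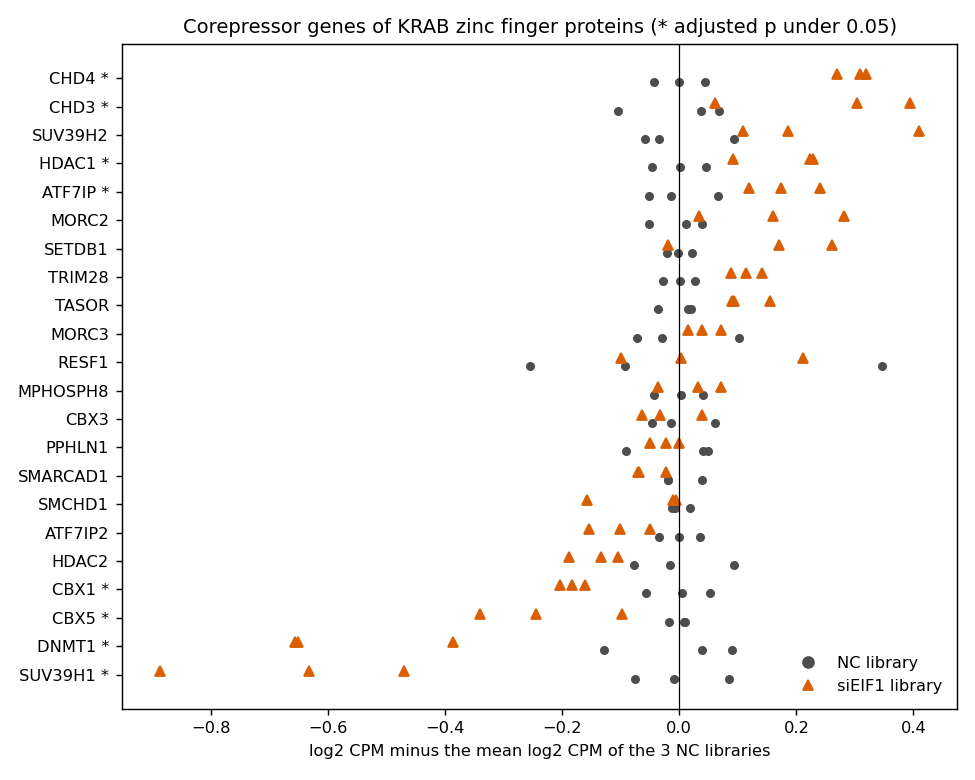
Log2 CPM minus the mean of the NC libraries (horizontal axis) in each NC (grey circles) and siEIF1 (orange triangles) library, for the 22 corepressor genes, with an asterisk on those that passed an adjusted p of 0.05. CHD4 lies at the top with all siEIF1 libraries above NC, DNMT1 and SUV39H1 at the bottom with all below, and TRIM28 in between.

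Among zinc finger genes with other names, of the ZBTB genes 4 of 37 tested rose and 2 fell, of the ZFP genes 1 of 19 rose and 2 fell, of the ZSCAN genes 1 of 15 rose and of the ZKSCAN genes 1 of 7 rose, beside 10.2% of all tested genes that rose and 10.4% that fell.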

How the data were processed

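Polyadenylated RNA of 3 NC and 3 siEIF1 samples of ARPE-19 cells was sequenced as strand-marked paired reads. Per the labels and the study's methods, the authors trimmed reads with FASTX-Toolkit 0.0.13, aligned them to GRCh38 with HISAT2 (version not given in the sources used here) and counted uniquely mapped reads per gene. The deposited table holds these raw counts, and the FPKM values that the authors made from them, per sample. The authors compared groups with DESeq2.

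Here the counts of all genes were fitted with edgeR 4.0.16 (R 4.3.3), with TMM factors, filterByExpr and the quasi-likelihood test of siEIF1 against NC. Adjusted p-values are Benjamini-Hochberg over all 16749 genes tested, and a call is an adjusted p under 0.05. CPM uses the TMM-scaled library size. All 6 libraries were grouped by their labels. Alternatives were DESeq2 1.42.0, limma 3.58.1 on log2(FPKM + 0.1) and log2(FPKM + 1), other scaling factors and filters, each library left out, a replicate block and a trend on transcript length and GC removed with mgcv 1.9.3. The edgeR test of the main fit and DESeq2 were first run on simulated counts, the other alternatives were not. Library totals were 26499929 to 31431479 counts. Counting error alone would give the log2 fold change of a member an error of 0.018 to 0.052, a median of 59.6% of its fitted SE.

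Exons, fingers, KRAB patterns and shared windows come from canonical transcripts of GENCODE release 44, in which all 115 genes were found. A finger is C, any 2 residues, C, any 12, H, any 3 or 4, then H or C. The members and gene lists were chosen with earlier results of these data known. Genes named are EIF1, up to 6 called members with the highest and up to 6 with the lowest log2 fold change and the 2 best counted members per chromosome class, the 3 genes on either side of the count limit, members in the role lists, and the corepressors that were called, with TRIM28 and SETDB1. ZNF580, ZNF528, ZNF83, ZNF562, ZNF268, ZNF84, ZNF33B, ZNF23, ZNF26, ZNF428, ZNF274, ZNF91, ZNF367, ZNF519, HDAC2, SUV39H2 and CBX3 were named after their values were seen.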

Additional observations from a re-analysis of the deposited data

How the results depend on the processing

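On chromosome 19, where 5 genes rose and 1 fell, limma on log2(FPKM + 0.1) and on log2(FPKM + 1) each gave 2 higher and 0 lower, DESeq2 and no filter on low counts each gave 0 lower (with 4 higher), and leaving out a library gave 2 to 4 higher and 0 to 1 lower. On other chromosomes, with 12 higher and 5 lower, leaving out a library gave 2 to 8 lower. A mean count of 200 or more gave 12 higher on chromosome 19, and one of 1000 or more gave 2 higher and 0 lower there and 5 higher and 1 lower elsewhere. With the fold limit as well all 4 counts were 0. The causes were not tested.

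The median of the chromosome 19 genes stayed above 0 in every alternative, between 0.046 and 0.107, and was 0.101 with the length and GC trend removed. That of the other chromosomes ran from -0.0057 to 0.057 without a library and turned negative without siEIF1 replicate 3. The 29 called genes among those named by the rule, over 14 alternatives each, kept their call in 325 fits, lost it in 81 and reversed in 0. Some named genes that were not called changed sign. ZNF605 was -0.016 and -0.0092 by limma at the smaller and larger pseudocount and -0.0002 with no filter. ZNF598 was -0.0010 and -0.0005, and ZNF217 -0.0061 and -0.0051, by limma. Without a library the ranges were -0.063 to 0.046 for ZNF605, -0.034 to 0.040 for ZNF384, -0.019 to 0.079 for ZNF598, -0.068 to 0.124 for ZNF37A, -0.0057 to 0.136 for ZNF106, -0.022 to 0.093 for ZNF335 and -0.015 to 0.046 for ZNF217.

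NC and siEIF1 samples share replicate numbers, but the labels do not say that a number marks a shared culture, and the correlations of same-numbered deviations were 0.149, 0.095 and 0.128, with 1 under 0.1, although each library correlated best with its own number. With a replicate block 6 genes were higher and 1 lower on chromosome 19, and 14 higher and 8 lower elsewhere. ZNF462, not called without the block, had an adjusted p of 0.000699 with it, and also passed with no filter on low counts and without siEIF1 replicate 1, but not by DESeq2 or limma.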
